A study of Mus musculus with 4 samples.

Results

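The 10 genes described here are the transcriptional and splicing switches between epithelial and mesenchymal cell states: the zinc-finger repressors Zeb1, Zeb2, Snai1 and Snai2, the basic helix-loop-helix factors Twist1 and Twist2, the splicing regulators Esrp1 and Esrp2, and the epithelial transcription factors Grhl2 and Ovol1. They were chosen by name, older symbols included, and all 10 were on the array, with 19 of its 41174 probes and among 27670 gene names. Transcript levels were compared between 4T1-S and 4T1-A, sub-lines of the 4T1 line, which was grown from a mammary tumour of a BALB/c mouse, with 2 one-colour arrays of total RNA per sub-line. The series title calls 4T1-S strongly immunogenic, and the labels name no agent, allele or time by which the sub-lines differ. Each sub-line is 1 cell line. Nothing in the labels ties its arrays to different cultures, and the p-values therefore cover array-to-array spread that may be purely technical.

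Epithelial cells hold together through cadherin and claudin junctions, and in an epithelial-mesenchymal transition they lose these and become motile. Zeb, Snail and Twist proteins bind E-boxes, short DNA motifs, and shut down epithelial genes such as Cdh1, while Grhl2, Ovol1 and Ovol2 repress Zeb1 or activate junction genes, and Zeb1 and Grhl2 repress each other. Esrp1 and Esrp2 set the epithelial exon choice in transcripts such as Fgfr2 and Cd44, and Esrp1 is itself repressed by Zeb and Snail proteins. 4T1 tumours are known for metastasis with much of the epithelial programme kept.

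Values are given as relative signal, the background-corrected intensity of a spot divided by the array's 75th percentile, and it depends on the probe as well as on the transcript. Between 54.9 and 59.2 percent of spots were well above background on the 4 arrays. All 7 mammary epithelial markers were above background on all 4 arrays. Their relative signal summed to 192 to 228 in 4T1-S and 244 to 256 in 4T1-A. Most of that sum was Krt8, with 130 and 127 in 4T1-S and 139 and 155 in 4T1-A, and Krt18. Krt18 had 93.4 and 58.9 in 4T1-S and 86.0 and 77.8 in 4T1-A, and neither of these passed. Of the 7, 4 fell in 4T1-S, Krt19, Krt14, Epcam and Cdh1, where 3.01 percent of all genes fell. Of 7 fibroblast markers, 1 was above background on all 4 arrays, and the list summed to 1.04 to 1.1 in 4T1-S and 0.528 to 0.772 in 4T1-A. Leukocyte markers summed to 0.940 to 0.971 in 4T1-S and 0.982 to 1.08 in 4T1-A, with 5 of 8 above background on all 4 arrays, and the pan-leukocyte marker Ptprc was above it on 1. The endothelial list, with 0 of 5 markers above background on all 4 arrays, summed to 0.172 to 0.224 in 4T1-S and 0.113 to 0.115 in 4T1-A. None of these other-cell markers passed the test, and their part in the results was not tested. The arrays lay on 1 slide with each sub-line at its own positions, so slide position and sub-line cannot be told apart.

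Among the 10 switch genes, Zeb1, Ovol1 and Grhl2 fell in 4T1-S and 0 rose (1, Zeb2, at an unadjusted p under 0.05), by limma's moderated test at an adjusted p under 0.05. A further 6 did not pass, and Twist2 was not tested because 0 of 4 arrays measured it well above background. Zeb1, Ovol1 and Snai2 entered the test only through 4T1-A, where they were well above background, so nothing is read from the count of 3 of 9 tested genes. Of the 6 switch genes above background on all 4 arrays, Grhl2 passed, and 0 did when the test was limited to such genes. Across all 16173 genes tested 6.96 percent passed, 3.95 percent higher and 3.01 percent lower in 4T1-S. Those are 639 genes higher and 487 lower, and with each array scaled to the median of all its spots the split was 189 higher and 887 lower. It was 266 and 465 with quantile normalization, 250 and 534 with cyclic loess and 230 and 282 with normexp. Log2 differences are those of 4T1-S minus 4T1-A, and their median over all genes was 0.13. Of the genes that fell, Zeb1 is known to repress the epithelial state, and Ovol1 and Grhl2 to maintain it. No result is drawn from this, since Zeb1 and Ovol1 were tested only through 4T1-A. The arrays of the sub-lines did not overlap for 7 of the 9, with 5 lower and 2 higher in 4T1-S, and the same held for 59.0 percent of all genes tested, 18.5 percent lower and 40.6 percent higher. Zeb1, Ovol1 and Snai2 are among the 5 lower, so nothing is read from this count either. In cell populations such as these, fewer cells expressing a gene and less RNA per cell cannot be told apart.

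**Figure D1:**
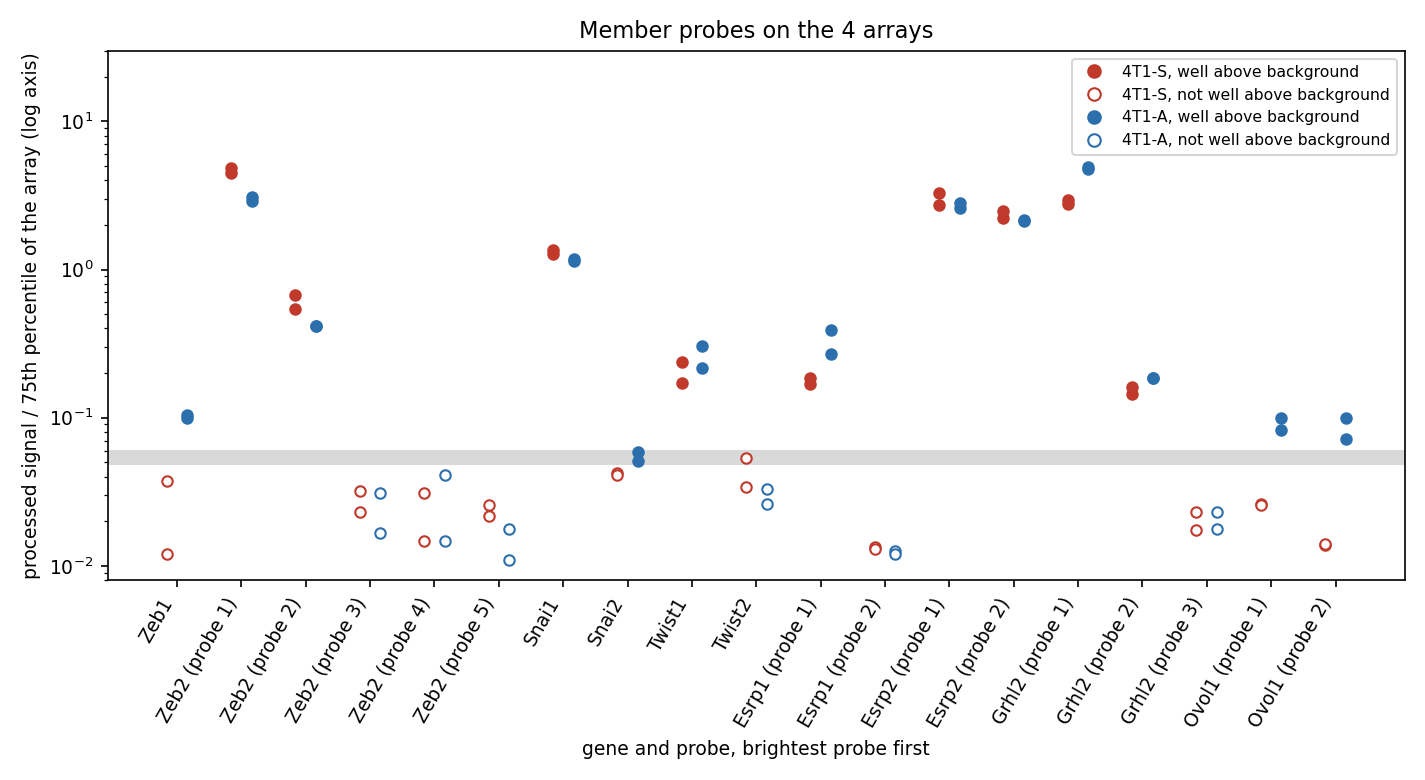
Relative signal (processed signal over the array's 75th percentile, log axis) of all 19 probes of the 10 switch genes, brightest probe of a gene first, with 1 point per array and 4T1-S left of 4T1-A. Open points were not well above background, and the grey band spans the lowest signals well above background on the 4 arrays. Zeb1 and Ovol1 were above background only in 4T1-A, Grhl2 and Esrp1 lay lower in 4T1-S without overlap, and Zeb2 lay higher in 4T1-S.

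Zeb1, which represses Cdh1 and the miR-200 genes, was near the detection limit and lower in 4T1-S. Its 1 probe (NM_011546, named Zfhx1a in the file) had a relative signal of 0.0373 and 0.0119 in 4T1-S, against 0.105 and 0.0991 in 4T1-A. Both 4T1-S arrays lay below both 4T1-A arrays, and the spot was well above background only in 4T1-A. With its 4T1-S side raised to the lowest signals well above background, the fall of Zeb1 was still 1.78-fold. The measured log2 difference was -2.27 ± 0.46 (SE, n = 2 arrays per sub-line, adjusted p = 0.0287). In scanner units the intensities were 15.1 and 5.93 in 4T1-S and 49 and 57.2 in 4T1-A, with software errors between 5.63 and 8.80, and 1 of the 4T1-S values was a surrogate that the software sets for low signals. The measured difference of -2.27 thus rests in part on a surrogate. Leaving out 4T1-S replicate 1 gave -3.10, which rests on the signal of 5.93 alone, below its software error of 6.40. Leaving out 4T1-S replicate 2 gave -1.45. The call was lost with another background correction, normexp with an offset of 50 (adjusted p = 0.168), with no filter on background (adjusted p = 0.133) and with an intensity trend in the fit (adjusted p = 0.0545).

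Zeb2, the paralog of Zeb1 that binds the same motif, was well above background on all 4 arrays and measured higher in 4T1-S, short of the threshold. Its brightest probe (NM_015753, named Zfhx1b) had a relative signal of 4.46 and 4.84 in 4T1-S, against 2.89 and 3.09 in 4T1-A. The sub-lines did not overlap, and the ratio of 1.56 was larger than the spread within either. The log2 difference was 0.64 ± 0.18 (95% interval 0.21 to 1.06, adjusted p = 0.0760). A second Zeb2 probe, A_51_P121206, gave 0.670 and 0.543 in 4T1-S and 0.417 and 0.415 in 4T1-A, a log2 difference of 0.54 ± 0.20 (adjusted p = 0.155 over all probes). The other 3 probes assigned to Zeb2 were well above background on 0 of 4 arrays. Zeb1 and Zeb2 thus lay on opposite sides, with Zeb1 lower and past the threshold and Zeb2 higher and not past it; whether their differences differ from each other was not tested.

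Of the Snail genes, neither passed. Snai1, the founding E-box repressor of Cdh1, had a relative signal of 1.35 and 1.26 in 4T1-S and 1.18 and 1.14 in 4T1-A. The 4T1-S arrays lay just above the 4T1-A arrays, with a log2 difference of 0.17 ± 0.18 (95% interval -0.25 to 0.60, adjusted p = 0.570), which turned to -0.12 when each array was scaled to the median of all its spots. Snai2, a Snail paralog that marks basal mammary cells, had 0.0421 and 0.0408 in 4T1-S and 0.0588 and 0.0508 in 4T1-A, and was well above background only in 4T1-A. Its log2 difference was -0.40 ± 0.19 (adjusted p = 0.207), so close to the detection limit that no fold above 1 can be given.

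Twist1, a mesoderm factor that drives invasion of mammary tumour cells, was above background on all 4 arrays and did not pass. Its relative signal was 0.172 and 0.236 in 4T1-S and 0.216 and 0.306 in 4T1-A, so the sub-lines overlapped. The log2 difference was -0.35 ± 0.25 (95% interval -0.93 to 0.23, adjusted p = 0.387). Twist2 had 0.0531 and 0.0341 in 4T1-S and 0.0263 and 0.0329 in 4T1-A with 0 of 4 arrays well above background.

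Ovol1, a zinc-finger repressor that holds epithelial cells in their state, was lower in 4T1-S on both of its probes. The brighter probe, A_51_P225827, had a relative signal of 0.0263 and 0.0256 in 4T1-S, against 0.0995 and 0.0826 in 4T1-A. The second, A_52_P441954, had 0.0138 and 0.0141 in 4T1-S, both software surrogates, against 0.0988 and 0.0718 in 4T1-A. On each probe every 4T1-A array was well above background and no 4T1-S array was. By the brighter probe the fall was at least 1.58-fold, with a measured log2 difference of -1.81 ± 0.19 (adjusted p = 0.00157). The second probe bounded the fold at 1.47 or more and also passed (adjusted p = 7.24e-04 over all probes), but its log2 difference of -2.60 ± 0.22 rests on surrogate values in 4T1-S, so its size and error are the software's. The 4T1-A signals of the brighter probe were 46.5 and 47.7 scanner units, and with normexp at an offset of 50 the log2 differences shrank to -0.18 and -0.34 and neither probe passed (adjusted p = 0.356 and 0.171).

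Grhl2, which activates Cdh1 and claudin genes and represses Zeb1, was well expressed in both sub-lines and lower in 4T1-S. Its brightest probe, A_51_P362328, had a relative signal of 2.75 and 2.97 in 4T1-S, against 4.90 and 4.78 in 4T1-A. The sub-lines stood clearly apart, with a mean of 2.86 ± 0.153 in 4T1-S and 4.84 ± 0.0848 in 4T1-A (SD, n = 2 each). The fall was 1.69-fold, a log2 difference of -0.76 ± 0.18 at the edge of the threshold (adjusted p = 0.0498). A dimmer probe, A_51_P408821, had 0.145 and 0.162 in 4T1-S and 0.184 and 0.185 in 4T1-A, with a log2 difference of -0.27 ± 0.19 that did not pass (adjusted p = 0.411 over all probes). The last Grhl2 probe, A_52_P373982, was well above background on 0 of 4 arrays. The Grhl2 call held in 5 of 17 other settings: it was lost when any array was left out, with an adjusted p of 0.194 for 4T1-S replicate 1, 0.169 for 4T1-S replicate 2, 0.166 for 4T1-A replicate 1 and 0.0947 for 4T1-A replicate 2, and with the mean of its probes the log2 difference was -0.35 (adjusted p = 0.232).

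Of the splicing regulators, Esrp1 measured lower in 4T1-S just short of the threshold and Esrp2 did not pass on either probe. Esrp1 had a relative signal of 0.184 and 0.168 in 4T1-S, against 0.270 and 0.393 in 4T1-A, on its detected probe (A_52_P79821, named Rbm35a). Both 4T1-S arrays lay below both 4T1-A arrays, which differed more between themselves than the 4T1-S arrays did. The log2 difference was -0.89 ± 0.23 (95% interval -1.42 to -0.36, adjusted p = 0.0592), a ratio of 1.85. Without 4T1-A replicate 1, the lower of the 4T1-A arrays, it was -1.16 and passed (adjusted p = 0.00717), in a fit that gave all genes 1 shared variance. Esrp2 had 2.71 and 3.28 in 4T1-S and 2.61 and 2.80 in 4T1-A on its brighter probe, with overlap, and 2.24 and 2.47 in 4T1-S and 2.14 on each 4T1-A array on the other. The log2 difference of Esrp2 was 0.14 on both probes (95% interval -0.31 to 0.59 on the brighter, adjusted p = 0.673), and -0.15 and -0.16 with scaling to the median of all spots. A second Esrp1 probe stood at surrogate values on every array.

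**Figure D2:**
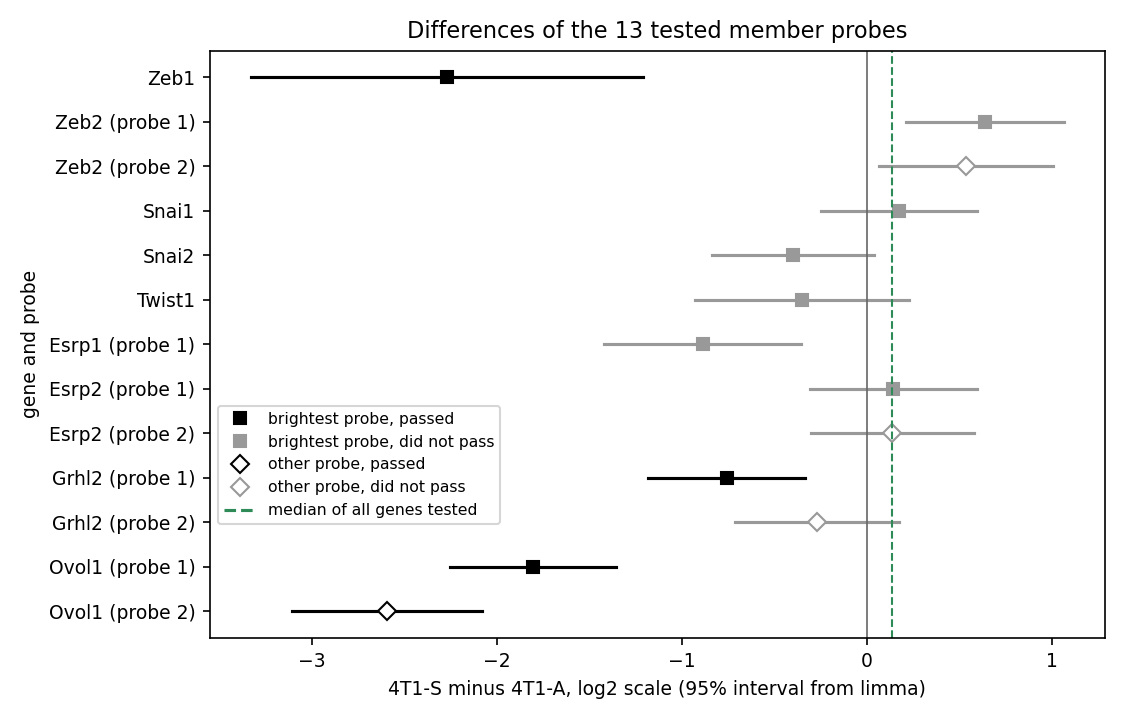
Log2 difference, 4T1-S minus 4T1-A, of the 13 tested probes of the switch genes with 95% intervals; squares are a gene's brightest probe, diamonds its other probes, and black marks passed the threshold in the fit over genes (squares) or over probes (diamonds). The dashed line is the median of all genes tested, 0.13. The Zeb1, Ovol1 and brightest Grhl2 probes lie below 0 and passed, and the Zeb2 probes lie above 0 and did not.

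Over probes rather than genes, 13 of the 19 probes could be tested and 3 passed, the Zeb1 probe and both Ovol1 probes, all lower in 4T1-S. In that fit 4.52 percent of the 23691 probes tested passed in either direction with 2.17 percent higher and 2.35 percent lower in 4T1-S. The brightest Grhl2 probe had an adjusted p of 0.0681 there.

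**Figure D3:**
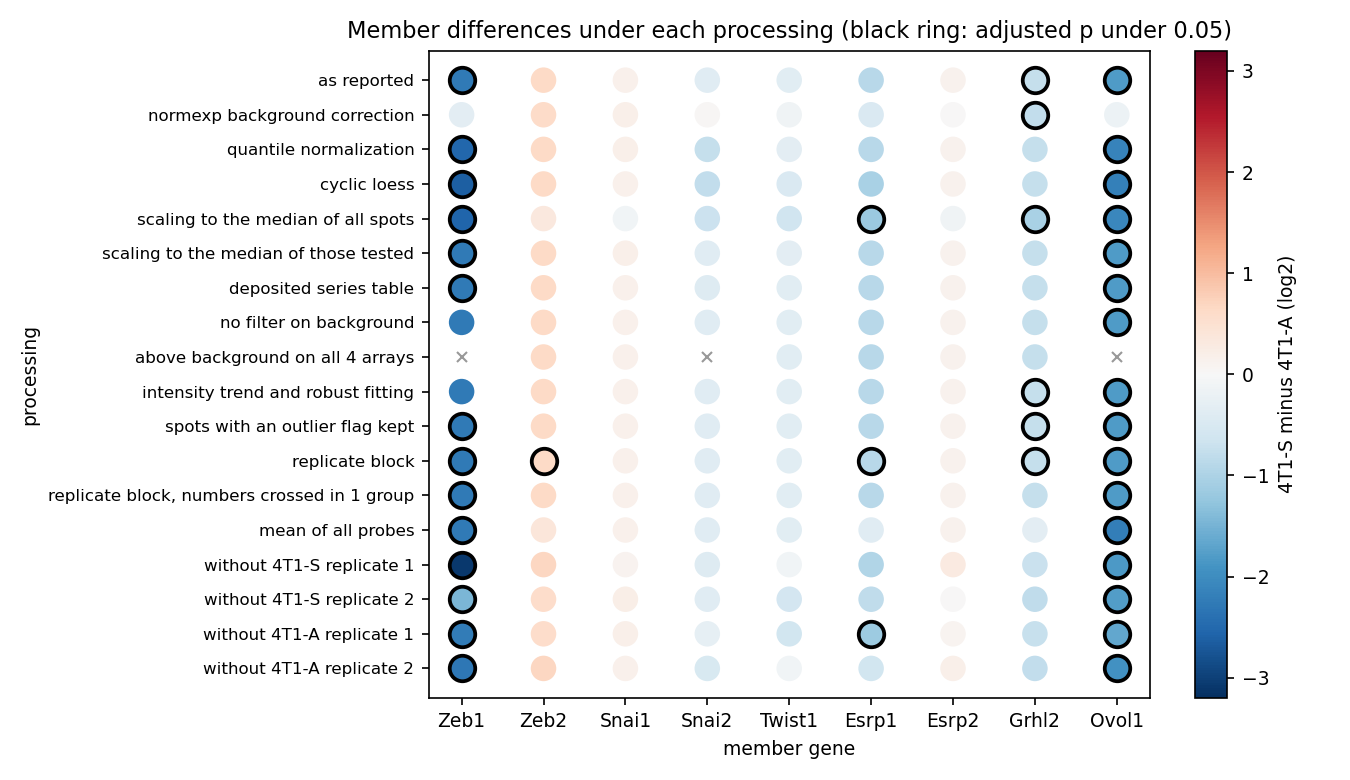
Log2 difference, 4T1-S minus 4T1-A, of the 9 tested switch genes as reported (top row) and under each alternative processing, as colour (blue lower, red higher in 4T1-S). Black rings passed the threshold and crosses were not testable. Zeb1 and Ovol1 were below 0 wherever they were tested, nearest to 0 with normexp, while Grhl2 crosses the threshold between settings.

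Around the switch genes, 1 transcription factor of the epithelial state rose and 1 fell, and those of the mesenchymal state did not pass. These were 2 of 8 tested epithelial factors, with a median log2 difference of -0.05, and 3.95 percent of all genes rose and 3.01 percent fell. Ovol2, a close relative of Ovol1 and a direct repressor of Zeb1, fell: its relative signal was 0.109 and 0.116 in 4T1-S, against 0.460 and 0.642 in 4T1-A. Every 4T1-S array lay far below every 4T1-A array, with a log2 difference of -2.27 ± 0.22 (adjusted p = 9.39e-04), and a second probe gave -1.44 (adjusted p = 0.00990 over all probes). Klf5, a Krüppel-like factor of basal and luminal epithelium, rose, with 10.9 and 10.8 in 4T1-S and 6.44 and 6.41 in 4T1-A (log2 difference 0.76 ± 0.18, adjusted p = 0.0487). The Klf5 call held in 5 of 17 other settings and in none that left out an array, where the adjusted p was 0.178 for 4T1-S replicate 1, 0.184 for 4T1-S replicate 2, 0.152 for 4T1-A replicate 1 and 0.108 for 4T1-A replicate 2. Of 10 tested mesenchymal factors, 0 passed (1 at an unadjusted p under 0.05, higher), with a median of 0.08, where 6.96 percent of all genes passed. The chromatin protein Hmga2, whose probe had the highest signal of that list, had 13.9 and 19.1 in 4T1-S and 15.5 and 18.4 in 4T1-A.

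Among partners of the Snail, Zeb and Twist proteins, Id4 fell and Ajuba rose, where 6.96 percent of all genes passed. Of 7 E-proteins and Id proteins, which pair with Twist factors or block that pairing, 1 fell and 6 did not pass, with a median of 0.01. The 1 that fell, Id4, entered the test only through 4T1-A, so nothing is read from this count. Id4, an Id protein of mammary progenitors, fell, with 0.0646 and 0.0644 in 4T1-S, both short of well above background, against 0.137 and 0.141 in 4T1-A. This was 2.16-fold lower as measured (log2 difference -1.11 ± 0.18, adjusted p = 0.0125), and a dimmer Id4 probe did not pass. With normexp the difference shrank to -0.18 and the call was lost (adjusted p = 0.340), as it was with no filter on background (adjusted p = 0.0664). The Id4 call ended when either 4T1-S array was left out (adjusted p = 0.0884 and 0.103). Of 13 corepressors, 1 rose and 12 did not pass, with a median of -0.15. Ajuba, a LIM protein that serves Snail as a corepressor, rose, with 17.5 and 17.1 in 4T1-S and 9.45 and 10.2 in 4T1-A (log2 difference 0.82 ± 0.18, adjusted p = 0.0397). Leaving out any array ended this call, with an adjusted p of 0.167 for 4T1-S replicate 1, 0.166 for 4T1-S replicate 2, 0.146 for 4T1-A replicate 1 and 0.0515 for 4T1-A replicate 2.

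Among epithelial genes known to be repressed by Zeb and Snail proteins, each one that passed was lower in 4T1-S. Of 20 tested, 9 fell, 0 rose (1 at an unadjusted p under 0.05) and 11 did not pass, with a median of -0.75, where 3.01 percent of all genes fell. Rab25 and Ap1m2 entered the test only through 4T1-A. The other 18 were above background on all 4 arrays, and 7 of these 18 fell when the test was limited to such genes. The list was chosen with earlier results of these data known, so its counts and median describe the choice as much as the genes. For 15 of the 20 tested, Rab25 and Ap1m2 among them, both 4T1-S arrays lay below both 4T1-A arrays, against 18.5 percent of all genes. The 9 that fell were Rab25, Epcam, Mal2, Cldn7, Ap1m2, Cldn4, Marveld3, St14 and Cdh1. Rab25, a small GTPase of apical recycling, had 0.0134 and 0.0284 in 4T1-S, neither well above background, against 2.16 and 2.73 in 4T1-A, and was at least 42.4-fold lower (adjusted p = 3.28e-05). Epcam, an epithelial adhesion molecule, had 0.181 and 0.177 in 4T1-S and 2.12 and 2.86 in 4T1-A, a log2 difference of -3.78 ± 0.21 (adjusted p = 5.65e-05). Cdh1, the adherens junction cadherin on which these repressors were first studied, fell less, with 2.13 and 2.30 in 4T1-S and 4.72 and 4.81 in 4T1-A. Its log2 difference was -1.11 ± 0.18 (adjusted p = 0.0131), and the adjusted p was 0.101 when 4T1-S replicate 1 was left out and 0.0903 when replicate 2 was. Marveld3 likewise did not pass without either 4T1-S array (adjusted p = 0.0881 and 0.0663). Zeb1 was itself lower in 4T1-S, near the detection limit, while the much brighter Zeb2 measured higher without passing and Snai1 did not pass. Whether any of these bears on the falls was not tested.

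Because these repressors act through promoters, the letters of the E-box that Zeb and Snail proteins recognise, CACCTG on either strand, were looked up in the 250 bases before each start site in RefSeq's table for GRCm38.p6. A gene counted as holding the motif if the window of any of its start sites did. Of the 9 genes that fell, 5 were matched in the table, and all 5 held the motif, as did 4 of 8 matched genes that did not pass. The window of the upstream Cldn7 start site held 0. Of all 27025 genes in the table, 19.4 percent held it. The list was chosen from targets of these repressors, so this share describes the choice as much as the genes. A match is not a binding site in these cells. The 4 windows shown carry at least 2 matches each, in capitals, on the gene's strand, and positions count back from the start site. Rab25 (chr3:88548280-88548529, minus strand) has them at -64 and -53, Epcam (chr17:87635729-87635978, plus strand) at -187 and -19, Ap1m2 (chr9:21312334-21312583, minus strand) at -81, -51, -21 and -9, and Cldn7 (chr11:69965171-69965420, plus strand, the downstream of its start sites) at -97 and -57.
Rab25: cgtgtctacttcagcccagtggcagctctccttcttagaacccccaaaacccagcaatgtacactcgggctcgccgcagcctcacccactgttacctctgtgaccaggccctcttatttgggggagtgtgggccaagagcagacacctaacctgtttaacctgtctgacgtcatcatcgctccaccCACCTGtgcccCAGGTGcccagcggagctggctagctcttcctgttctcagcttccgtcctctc
Epcam: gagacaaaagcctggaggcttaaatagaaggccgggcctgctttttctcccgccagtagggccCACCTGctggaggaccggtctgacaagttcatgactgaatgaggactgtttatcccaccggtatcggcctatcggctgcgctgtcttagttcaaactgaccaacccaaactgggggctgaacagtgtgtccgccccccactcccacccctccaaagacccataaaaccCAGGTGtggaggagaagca
Ap1m2: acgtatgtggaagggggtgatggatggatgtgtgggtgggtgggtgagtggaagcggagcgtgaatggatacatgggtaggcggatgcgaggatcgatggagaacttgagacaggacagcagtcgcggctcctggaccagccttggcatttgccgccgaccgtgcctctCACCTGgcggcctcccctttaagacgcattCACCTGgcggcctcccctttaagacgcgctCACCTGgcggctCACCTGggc
Cldn7: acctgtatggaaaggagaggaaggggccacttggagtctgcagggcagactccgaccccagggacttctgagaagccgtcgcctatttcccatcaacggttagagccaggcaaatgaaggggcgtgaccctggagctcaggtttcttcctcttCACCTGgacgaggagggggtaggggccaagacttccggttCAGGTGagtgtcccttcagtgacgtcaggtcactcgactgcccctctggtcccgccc

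Ap1m2, an adaptor subunit for sorting to the basolateral membrane, had a relative signal of 0.0537 and 0.0468 in 4T1-S, not well above background, against 0.312 and 0.357 in 4T1-A, and was at least 5.83-fold lower. With normexp its log2 difference was -1.08 and still passed (adjusted p = 0.0134), and its other probe, well above background on 0 of 4 arrays, had 0.10. Cldn7, a tight junction claudin, had 3.44 and 3.25 in 4T1-S, against 24.8 and 22.4 in 4T1-A, a log2 difference of -2.82 ± 0.19 (adjusted p = 1.30e-04). In neither gene did the sub-lines come near each other. Among the switch genes, 4 were matched in the promoter table, Zeb2, Snai1, Twist1 and Twist2, and only Snai1, which is known to repress its own promoter in human cells, held the motif. Its window (chr2:167537945-167538194, plus strand) carries it at -126, again in capitals.
Snai1: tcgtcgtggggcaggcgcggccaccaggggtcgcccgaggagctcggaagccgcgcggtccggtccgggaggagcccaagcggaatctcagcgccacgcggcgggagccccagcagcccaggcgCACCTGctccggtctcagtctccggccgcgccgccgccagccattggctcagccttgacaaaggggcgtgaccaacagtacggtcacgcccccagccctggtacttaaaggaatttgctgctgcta

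On the list of genes activated by Grhl2, 4 of 6 tested fell, Rab25, Cldn4, Ovol2 and Cdh1, where 3.01 percent of all genes fell. The other 2 did not pass, and the median of the 6 was -1.69. Rab25 entered the test only through 4T1-A and the list was chosen with earlier results of these data known, so nothing is read from this count. Of the 4 that fell, 3 also belong to the list of repressed epithelial genes. Cldn4, a claudin of simple epithelia, had 0.270 and 0.256 in 4T1-S and 1.76 and 1.55 in 4T1-A, a log2 difference of -2.65 ± 0.19 (adjusted p = 1.76e-04). Cldn3, another claudin, overlapped between the sub-lines, with 6.35 and 9.83 in 4T1-S and 7.47 and 10.3 in 4T1-A. Erbb3, a receptor of the EGF receptor family, had 0.523 and 0.731 in 4T1-S and 0.843 and 1.43 in 4T1-A. Its log2 difference of -0.83 did not pass (adjusted p = 0.116), and it was -1.20 when 4T1-A replicate 1 was left out. The Grhl motif AACNGGTT, on either strand, stood in the 250-base window of Rab25 at -102, was not in those of Cldn4, Ovol2 or Cldn3, and occurred in 2.0 percent of all genes in the table. On the list of repressed epithelial genes, 1 of 5 matched genes that fell and 1 of 8 that did not pass held it.

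Of 13 tested genes whose exons Esrp proteins select, 1 rose in total signal and 12 did not pass, with a median of -0.07, where 6.96 percent of all genes passed. Exon choice was not measured here. Enah, an actin regulator with an Esrp-dependent epithelial exon, rose, with 2.50 and 2.85 in 4T1-S and 1.05 and 1.17 in 4T1-A. Its log2 difference was 1.27 ± 0.19 (adjusted p = 0.00860), a second probe gave 1.02 (adjusted p = 0.0310 over all probes), and leaving out 4T1-S replicate 1 or replicate 2 ended the call (adjusted p = 0.0543 and 0.0922). The hyaluronan receptor Cd44 had 11.5 and 11.6 in 4T1-S and 13.3 and 12.7 in 4T1-A, a log2 difference of -0.17 that did not pass, and its other probes gave -1.06 (adjusted p = 0.0630 over all probes) and 0.03. Fgfr2, the growth factor receptor with the best-known Esrp exon, had 0.158 and 0.114 in 4T1-S and 0.161 and 0.128 in 4T1-A, and Ctnnd1, the cadherin partner p120-catenin, had 0.163 and 0.244 in 4T1-S and 0.139 and 0.220 in 4T1-A. The sub-lines overlapped for both.

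Of 13 other splicing regulators, 1 fell and 12 did not pass, with a median of -0.27, again near the 6.96 percent of all genes that passed. Rbm47, an RNA-binding protein of epithelial cells, fell, with 0.230 and 0.239 in 4T1-S and 0.550 and 0.563 in 4T1-A. The sub-lines were well separated, with a log2 difference of -1.25 ± 0.18 (adjusted p = 0.00732), and leaving out 4T1-S replicate 1 or replicate 2 put the adjusted p at 0.0670 and 0.0686.

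Of 10 tested mesenchymal effector genes, the products that mark mesenchymal cells, 0 passed in either direction, with a median of 0.04 (1 higher and 1 lower at an unadjusted p under 0.05). Over all genes 6.96 percent passed and the median was 0.13, so 0 of 10 lies near that share and nothing is read from it. Vim, the mesenchymal intermediate filament, had 24.6 and 18.4 in 4T1-S and 23.3 and 20.0 in 4T1-A, and the sub-lines overlapped (adjusted p = 0.963). Fn1, fibronectin, had 11.6 and 7.19 in 4T1-S and 9.98 and 7.27 in 4T1-A, again with overlap (adjusted p = 0.842). Cdh2, the mesenchymal cadherin, was well above background on 0 of 4 arrays. The calcium-binding protein S100a4, whose probe had the highest signal of the list, had 243 and 199 in 4T1-S and 297 and 261 in 4T1-A, a log2 difference of -0.34 ± 0.20 (adjusted p = 0.301).

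**Figure D4:**
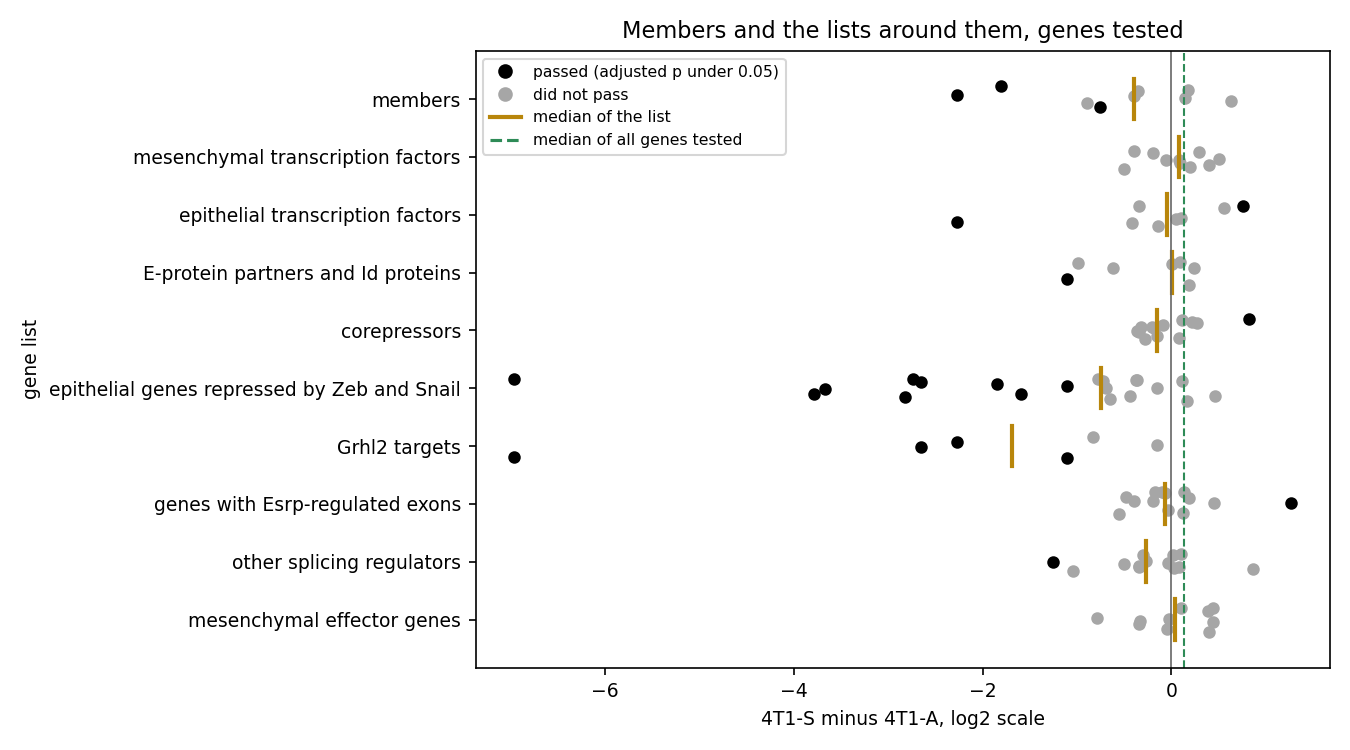
Log2 difference, 4T1-S minus 4T1-A, of each tested gene in the switch set and the 9 lists around it, with 1 point per gene, black where it passed, a bar at each list's median and a dashed line at the median of all genes tested. Points are spread vertically only for visibility. The lists of epithelial target genes and Grhl2 targets reach far below 0, with medians of -0.75 and -1.69. The lowest point of both is the same gene, Rab25, which was tested only through 4T1-A, and the 2 lists share other genes. Mesenchymal factors and effectors lie around 0. All lists were chosen with earlier results of these data known.

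Among the switch genes above background on all 4 arrays, Esrp1 had the largest negative and Zeb2 the largest positive difference. For these 2 the nearest profiles were taken as the smallest Euclidean distance between log2 values over the 4 arrays, each gene centred on its own mean, among 14191 genes. Nearest to Esrp1 were Satb1, Wdr90 and Bcl11a, at distances of 0.137, 0.145 and 0.150, with log2 differences of -0.77, -0.83 and -0.96. A second Satb1 probe had a log2 difference of 0.63, opposite in sign. Nearest to Zeb2 were Plekhd1os, the unnamed probe A_51_P517720 and Ints9, at distances of 0.0257, 0.0264 and 0.0302, with log2 differences of 0.62, 0.66 and 0.65. These distances rest on 4 arrays in 2 groups.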

How the data were processed

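Agilent Feature Extraction 9.1 produced the deposited spot intensity values, per the submitters' processing notes. Per the file headers, the software subtracted background from the processed intensity, detrended it over the array and put surrogates in place of low signals. The deposited series table holds a ratio, which the values show to be that intensity over the array's 75th percentile to 3 decimals. Its column medians were 0.098 and 0.091 in 4T1-S and 0.078 and 0.076 in 4T1-A. One file, that of 4T1-A replicate 1, was rounded to 3 significant digits and has 47 altered gene names, so names came from another.

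The analysis used log2 of the processed intensity, from which was taken the array's 75th percentile over 43379 spots other than controls, without 5 to 9 spots per array that carry outlier flags. The 75th percentile was 405 and 498 intensity units in 4T1-S and 467.5 and 577 in 4T1-A. Spots of a probe were averaged, a gene took its probe with the highest mean, and tests were limited to genes whose probe stood well above background in the full pair of arrays from either sub-line. Of 41174 probes, 22951 were named through an accession and 6659 through a current and 3109 through an older symbol in the RefSeq table of GRCm38.p6. The arrays of a sub-line correlated across genes, which are not independent replicates, at r = 0.993 in 4T1-S and 0.992 in 4T1-A, and precision is limited by how few arrays there are.

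Differences between sub-lines were tested by limma 3.58.1 (lmFit, eBayes; 2-sided; degrees of freedom 2 residual and 5.71 prior), run under R 4.3.3 and data.table (version 1.17.8), over all genes or over all probes, with Benjamini-Hochberg adjustment and a threshold of 0.05. For a probe that neither array of a sub-line measured well above background, the fold is a lower bound by convention. It leaves out array error, and a spot short of well above background can still exceed the lowest signal that is. The dim side of the bound is, on each array, the probe's own signal or the lowest signal well above background, whichever is higher, and for Id4 it equals the measured fold. In simulated data for 16173 genes of this comparison, 4 percent of genes changed by 1 log2 unit, 68 percent by 2, 82 percent by 3 and 80 percent by 4 were recovered, with 2 false calls. Only 50 genes were changed per size, while 1126 passed in the data, and spreads were drawn from the estimates for single genes on these arrays. The shares recovered need not hold for the data themselves.

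The switch genes, the lists around them and the tests were chosen with earlier results of these data known. Named are all switch genes, up to 2 rises and 2 falls per list among those that passed or else its brightest gene, Cdh1, Epcam, Vim, Cdh2, Fn1 and the nearest profiles. Named outside this rule, after their values were seen, were Cldn7, Ap1m2, Mal2, Marveld3, St14, Cldn3, Erbb3, Cd44, Fgfr2, Ctnnd1, Krt8, Krt18, Krt19, Krt14 and Ptprc. The background correction, scaling, filter, probe summary, fit, replicate block and each array left out were varied. Promoter sequences are RefSeq's for GRCm38.p6. The files name no genome build.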

Additional observations from a re-analysis of the deposited data

How the results depend on the processing

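Of the 3 switch genes that passed, 1 did with normexp, 1 with no filter on background and 0 when a probe had to be above background on all 4 arrays, which leaves Zeb1 and Ovol1 untested. Of the 3 switch probes that passed, 0 did with normexp, where 1 other did, and 0 with the filter on all 4 arrays, and 5 switch probes passed with scaling to the median of all spots. Epithelial transcription factors that passed numbered 1 with normexp, quantile normalization, cyclic loess, median scaling, the filter on all 4 arrays and the mean of all probes, against 2. E-proteins and Id proteins numbered 0 with normexp, no filter or the filter on all 4 arrays and 2 with median scaling, against 1. Corepressors numbered 0 with normexp, quantile, cyclic loess, median scaling or no filter, against 1. Genes with Esrp exons and other splicing regulators each numbered 2 with median scaling and 0 with no filter, against 1. Mesenchymal effectors numbered 1 with cyclic loess, median scaling or the mean of all probes, against 0, and mesenchymal factors 0 throughout.

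Leaving out an array left 2 to 3 switch genes and 3 to 4 switch probes, 1 epithelial factor, 0 to 2 E-proteins and Id proteins, 0 corepressors, 7 to 11 epithelial targets, 3 to 5 Grhl2 targets, 0 to 1 Esrp exon genes, 0 to 2 other splicing regulators and 0 to 1 mesenchymal effectors, while 310 to 1823 of all genes passed. With 1 array left in a sub-line, that array is assumed to vary like the other sub-line's, and without a 4T1-A array limma gave all genes 1 shared variance, so those p-values leave out a gene's own spread. Median scaling moved the median of all genes to -0.16, against 0.13, and turned the log2 difference of Snai1 to -0.12, of Esrp2 to -0.15 and -0.16 on its probes, of Fn1 to -0.19 and of Ctnnd1 to -0.11. Cyclic loess put that median at 0.03. Over all alternatives the adjusted p ran from 3.12e-11 to 0.168 for Zeb1, 6.21e-08 to 0.356 for Ovol1, 0.0176 to 0.232 for Grhl2, 0.00717 to 0.226 for Esrp1, 0.0275 to 0.315 for Zeb2, 0.00431 to 0.101 for Cdh1, 0.0170 to 0.184 for Klf5, 0.00423 to 0.340 for Id4, 0.0137 to 0.167 for Ajuba, 6.29e-04 to 0.0922 for Enah, 0.00222 to 0.0686 for Rbm47, 1.85e-10 to 0.0903 for Marveld3 and 0.00443 to 0.964 for Erbb3. With normexp Snai2 was at 0.049 and Fgfr2 at 0.11, and with the mean of all probes Fgfr2 was at 0.49. The sign also turned when an array was left out, with differences of -0.23 to 0.19 for Vim, -0.25 to 0.45 for Fn1, -0.28 to 0.18 for Hmga2, -0.47 to 0.16 for Cldn3, -0.33 to 0.14 for Fgfr2 and -0.15 to 0.51 for Ctnnd1. The cause of these changes was not tested.

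The replicate numbers 1 and 2 occur in both sub-lines, and the deviations of same-numbered arrays correlated at r = 0.42. The labels name no shared source, so whether same-numbered arrays form pairs is not known. With the replicate block, 5 switch genes passed, 1 higher and 4 lower, with 6 switch probes, 3 E-proteins and Id proteins, 2 Esrp exon genes, 3 other splicing regulators and 1 mesenchymal effector. Pairing the numbers crosswise, an alternative chosen after seeing the data, left 1 epithelial factor and 0 corepressors. Over all genes 3683 passed with the replicate block and 598 with it crossed, against 1126. Signal over background limits Zeb1, Ovol1 and Snai2, whose 4T1-S spots were not well above it.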
